A study of Homo sapiens with 12 samples.

Results

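The proteasome genes described here were all protein-coding genes whose symbol is PSM, then a letter from A to G, then digits. The rule took 48 of the 58051 genes of the count table by name alone, and no measured value entered the rule. PSMC3IP, a recombination cofactor, does not match the rule because letters follow its digit. Of the 48 members, 47 had enough reads to be tested. The exception, PSMB11, the thymus form of a catalytic subunit, had 2 reads in all 12 libraries together. The tested members were 8 alpha-ring genes, 4 structural beta-ring genes, 3 constitutive catalytic genes, 3 immunoproteasome catalytic genes, 6 ATPases, 11 non-ATPase subunits of the regulatory particle, 3 chaperones of that particle, 4 activators, 1 inhibitor and 4 chaperones of core assembly.

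Polyadenylated RNA was sequenced from MV4-11, an established line from a human acute myeloid leukaemia, with a rearranged KMT2A gene and mutant FLT3. The cells, with no other modification given in the labels, had been exposed for 6 h to 200 nM BSJ-03-123, 200 nM YKL-06-102, 200 nM Palbociclib or the vehicle, 0.1% DMSO, with 3 libraries per group. Palbociclib inhibits the kinases CDK4 and CDK6, and the submitters call the other compounds phthalimide conjugates specific for CDK6. Phthalimide groups can bind cereblon, part of a ubiquitin ligase, and proteins tagged by that ligase are removed by the proteasome.

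The proteasome is the protease that breaks down ubiquitin-tagged proteins. Its core is a barrel of alpha and beta rings with the catalytic sites inside, and regulatory particles with a ring of ATPases and a lid unfold the substrate and open the gate. Interferons and blood cell identity favour the immunoproteasome, in which PSMB8, PSMB9 and PSMB10 take the places of PSMB5, PSMB6 and PSMB7 and shift the peptides made for antigen presentation. Transcription of the subunit genes is known to be raised as a block by NFE2L1 when proteasome capacity falls.

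Library totals lay between 18764307 and 25539858 counts. DMSO replicate 2 stood apart from the other DMSO libraries, with a chi-square per degree of freedom of 5.87 and 8.91 against them, where the 10 other replicate pairs of the series gave 1.72 to 2.94. Separate cultures are not stated for the replicates, and the p-values therefore rest on library-to-library spread that could be technical. Summed over 8 genes, the normalised counts (CPM, scaled to library size by edgeR) of myeloid markers ranged from 2109 to 2129 CPM after BSJ-03-123, 2446 to 2473 CPM after YKL-06-102, 2142 to 2175 CPM after Palbociclib and 1974 to 2009 CPM in DMSO. Lymphoid markers summed to at most 1.76 CPM and erythroid markers to at most 0.0479 CPM in any library, and epithelial and stromal markers to between 6.30 and 9.08 CPM. CDK6 mRNA rose by 0.19, 0.16 and 0.14 on the log2 scale after BSJ-03-123, YKL-06-102 and Palbociclib (edgeR adjusted p = 7.14e-05, 0.000341 and 0.00215), and this does not check the labels, since the compounds act on the protein. In bulk RNA, fewer cells of a kind and less RNA per cell cannot be told apart.

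Most proteasome genes did not pass the test against DMSO at 6 h, while 14 fell with at least 1 compound and 2 rose. These counts pool the 3 comparisons. No share of all genes was pooled in that way, and the shares below are per comparison. The decreases were largest for PSMG1, which builds the core, and PSMC3, an ATPase of the regulatory particle. After BSJ-03-123, 11 of 47 members (23.4%) fell and 0 rose, beside 15.7% of all 14214 tested genes lower and 12.4% higher in that comparison. After YKL-06-102, 11 fell (23.4%) and 1 rose (2.13%), beside 21.3% of all genes lower and 15.6% higher. After Palbociclib, 13 fell (27.7%) and 2 rose (4.26%), beside 17.6% of all genes lower and 15.6% higher. Calls are at an adjusted p under 0.05 from edgeR's quasi-likelihood test with Benjamini-Hochberg adjustment over all tested genes, and the 3 comparisons share their DMSO libraries. Libraries of a compound lay wholly below DMSO for 15, 16 and 18 of the 47 members, in the same order, and wholly above for 0, 0 and 3. Such separation was common over all tested genes, with 19.4%, 25.2% and 21.1% wholly below and 17.8%, 19.5% and 20.7% wholly above.

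Fold changes of the family were small. The median log2 fold change over the 47 members was -0.03 after BSJ-03-123, -0.04 after YKL-06-102 and -0.03 after Palbociclib, beside 0.01, -0.02 and 0.01 over all tested genes. The median size of the change, without its sign, was 0.06, 0.06 and 0.07 for the members and 0.13, 0.15 and 0.14 for all genes, in the same order of compounds. The members are well expressed, with a median level of 138 CPM in DMSO. At an average level of 5 or more on the log2 CPM scale, 26.8% of 41 members were called after BSJ-03-123 beside 39.3% of 6105 genes. The corresponding shares were 26.8% beside 48.6% after YKL-06-102 and 34.1% beside 44.6% after Palbociclib. The 95% interval lay within a 1.25-fold change in either direction for 41 of 47 members after BSJ-03-123, 44 after YKL-06-102 and 41 after Palbociclib.

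**Figure D1:**
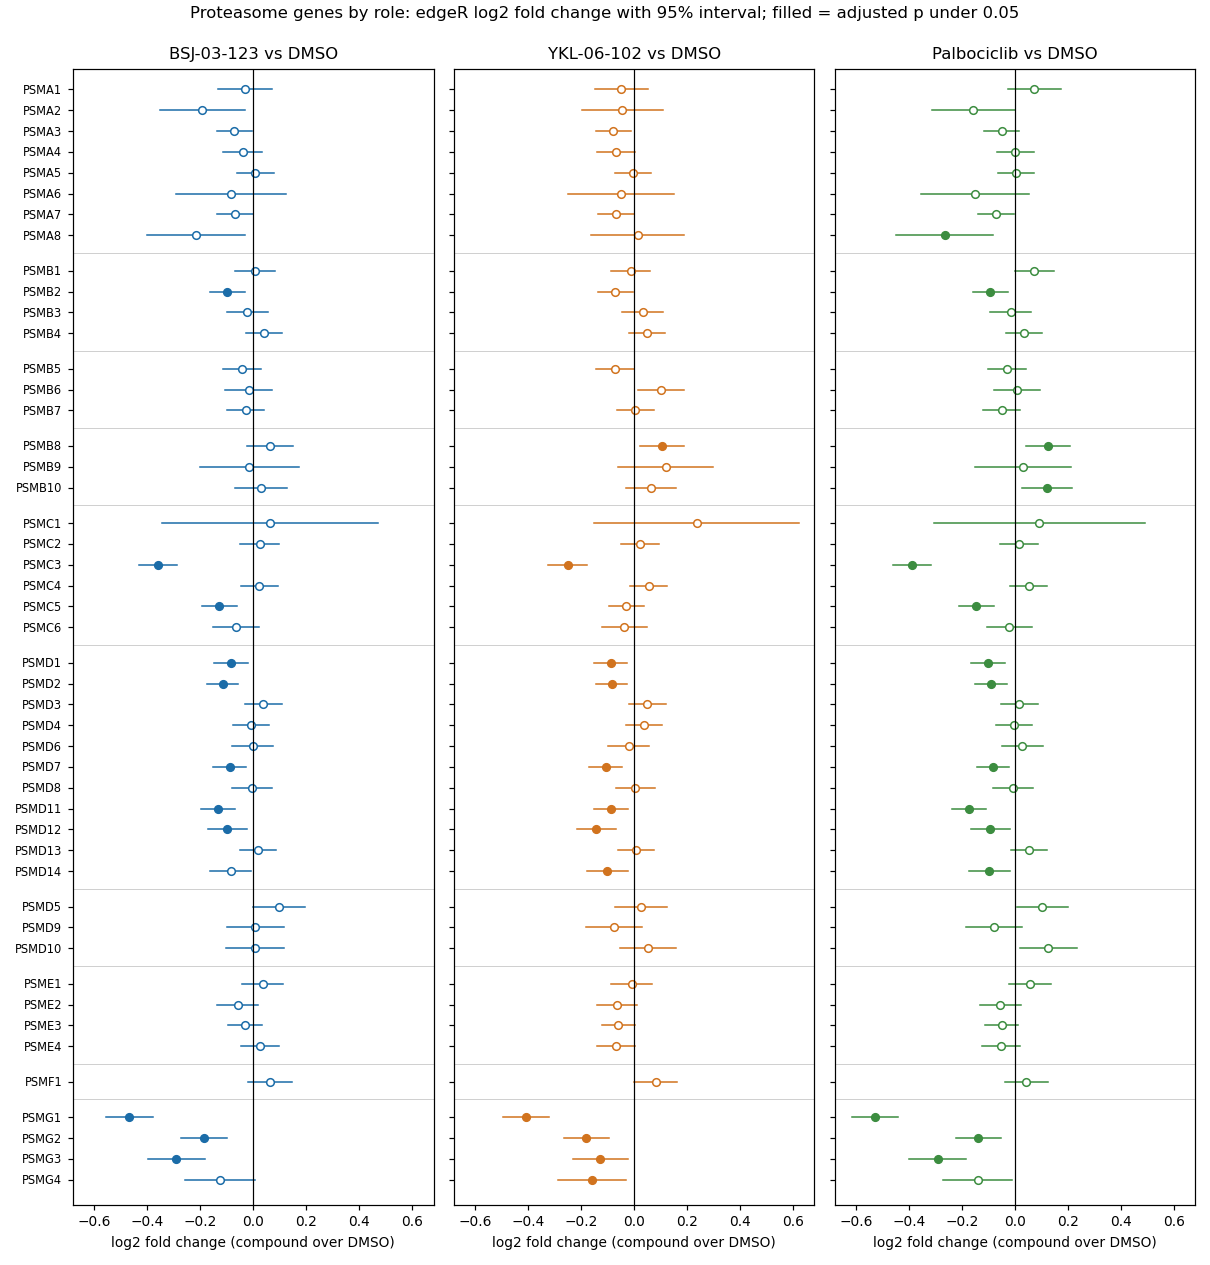
Log2 fold change of each of the 47 tested members (rows, grouped by role from the alpha ring at the top to the core assembly chaperones at the bottom) for BSJ-03-123, YKL-06-102 and Palbociclib over DMSO, with 95% intervals; filled points passed an adjusted p of 0.05. PSMG1 and PSMC3 lie farthest below 0 in all 3 panels, with PSMG3 next in the BSJ-03-123 and Palbociclib panels. Most other points with narrow intervals lie near 0.

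Which of the small changes passed the test depended on scaling, and no called member changed sign under the refits. With library totals in place of edgeR's TMM factors, 4 members were higher and 6 lower after BSJ-03-123, 6 higher and 4 lower after YKL-06-102, and 9 higher and 5 lower after Palbociclib. Beside these, 2852 of all tested genes were higher and 1765 lower, 2877 and 2422, and 3396 and 1949, in the same order. That scaling moved the median of all genes by less than 0.1 on the log2 scale, to 0.05, 0.02 and 0.06. The median of the 47 members became 0.01, -0.0002 and 0.02. Of the members, 20, 24 and 23 then lay below 0, against 31, 29 and 28 with TMM factors. With DESeq2 size factors, YKL-06-102 gave 2 higher and 5 lower members, beside 2381 higher and 2821 lower of all tested genes. Without DMSO replicate 2, the counts were 2 higher and 12 lower after BSJ-03-123, 9 higher and 6 lower after YKL-06-102, and 5 higher and 10 lower after Palbociclib. In those fits 1774 of all tested genes were higher and 2314 lower, 2754 and 2829, and 2108 and 2491, in the same order. The summed level of the 48 members was 6137 ± 90.9 CPM after BSJ-03-123, 6183 ± 60.1 CPM after YKL-06-102 and 6155 ± 37.9 CPM after Palbociclib, against 6347 ± 153 CPM in DMSO (SD, n = 3 each), and the libraries of each compound overlapped the DMSO libraries. As a share of all counts, the sum was 0.618%, 0.620% and 0.622% with the compounds, against 0.620% in DMSO.

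**Figure D2:**
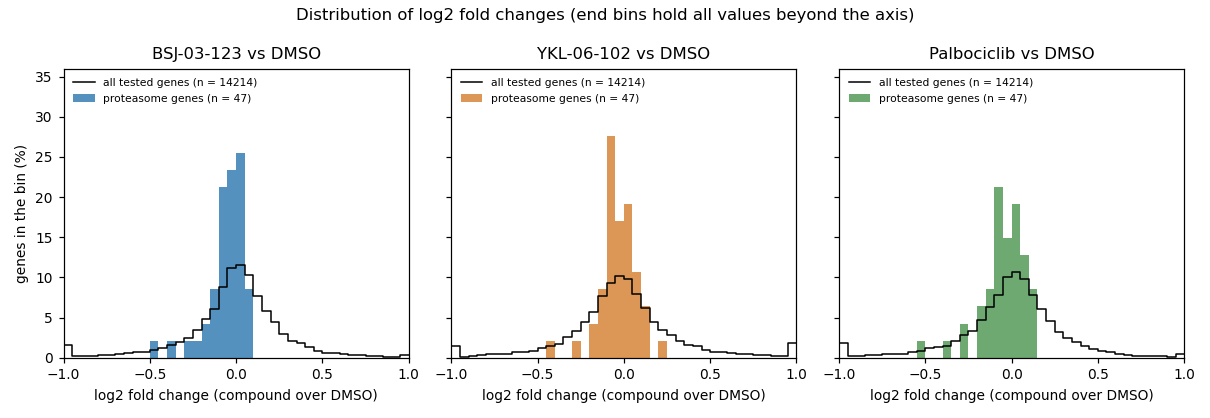
Share of genes (%) per bin of log2 fold change over DMSO, for the 47 proteasome genes (bars) and all 14214 tested genes (line), one panel per compound. The bars are narrower than the line in each panel, with a few members to the left of -0.25 and none above 0.25.

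The chaperones of core assembly, PSMG1 to PSMG4, work in pairs that join alpha subunits into a ring before the beta ring is added. Of these 4 genes, 3 fell after BSJ-03-123, 4 after YKL-06-102 and 3 after Palbociclib, beside 15.7%, 21.3% and 17.6% of all tested genes. On library totals, 3, 2 and 2 were called lower, and without DMSO replicate 2 the counts were 3, 2 and 3, while all 4 fold changes stayed below 0 under these alternatives and DESeq2 size factors. The group's median log2 fold change was -0.24, -0.17 and -0.22.

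PSMG1 (ENSG00000183527; GRCh38 chr21:39174769-39183851, minus strand) fell most among all members. Its libraries had 58.4, 59.8 and 59.7 CPM after BSJ-03-123, 62.4, 63.9 and 59.3 CPM after YKL-06-102 and 55.7, 60.0 and 54.9 CPM after Palbociclib, against 82.2, 84.3 and 79.3 CPM in DMSO. All 9 compound libraries lay below all 3 DMSO libraries, by more than the spread within any group. The log2 fold changes were -0.47 (SE 0.04, edgeR adjusted p = 8.21e-10) after BSJ-03-123, -0.41 (SE 0.04, adjusted p = 5.69e-09) after YKL-06-102 and -0.53 (SE 0.04, adjusted p = 4.62e-11) after Palbociclib. PSMG1 pairs with PSMG2, and its call held for each compound under all 18 refits tried, which were other scalings, filters, designs and tests and the fits without each library.

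PSMG2 had 67.0, 62.4 and 61.6 CPM after BSJ-03-123, 66.0, 62.4 and 63.0 CPM after YKL-06-102 and 64.7, 64.8 and 67.8 CPM after Palbociclib, against 74.1, 72.1 and 70.8 CPM in DMSO. Again the DMSO libraries were the 3 highest. The log2 fold changes were -0.18, -0.18 and -0.14 (edgeR adjusted p = 0.00124, 0.000894 and 0.0111), and the call after Palbociclib was lost under 3 of 18 refits. Exons of CEP76, a centrosomal gene on the other strand, share 468 bases with PSMG2. CEP76 itself fell by 0.39, 0.39 and 0.53 on the log2 scale, and its part in the PSMG2 values was not tested.

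PSMG3, which pairs with PSMG4, had 37.8, 41.3 and 38.2 CPM after BSJ-03-123, 46.6, 41.3 and 43.4 CPM after YKL-06-102 and 37.7, 38.7 and 40.9 CPM after Palbociclib, against 47.01, 49.6 and 46.6 CPM in DMSO. The BSJ-03-123 and Palbociclib libraries lay below every DMSO library, while the YKL-06-102 libraries reached the lowest DMSO value. Its log2 fold changes were -0.29 (SE 0.05, edgeR adjusted p = 8.71e-05) after BSJ-03-123 and -0.29 (SE 0.05, adjusted p = 5.74e-05) after Palbociclib. After YKL-06-102 it was -0.13 (SE 0.05, edgeR adjusted p = 0.0495), a call lost under 14 of 18 refits. The antisense gene PSMG3-AS1, with 60 shared exon bases, rose by 0.33, 0.41 and 0.42 on the log2 scale. PSMG4 stood at -0.13, -0.16 and -0.14, with a call for YKL-06-102 only (edgeR adjusted p = 0.0496) that was lost under 16 of 18 refits.

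**Figure D3:**
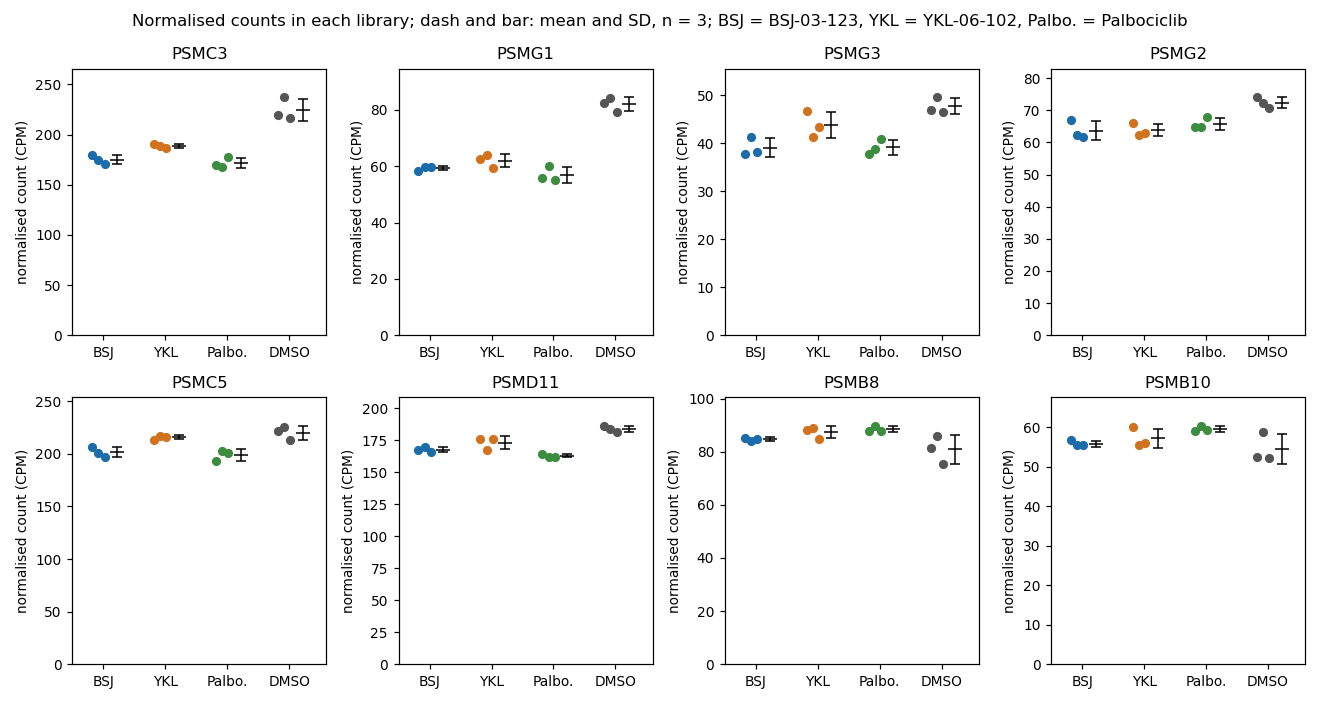
Normalised count (CPM, axis from 0) in each library for PSMC3, PSMG1, PSMG3, PSMG2, PSMC5, PSMD11, PSMB8 and PSMB10, with the mean and SD of 3 libraries beside the points. The DMSO points of PSMC3 and PSMG1 stand clear of all compound points, while those of PSMB8 and PSMB10 spread more widely than the compound points.

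The 6 ATPases, PSMC1 to PSMC6, form the ring that threads substrates into the core. Of these, PSMC3 fell with all 3 compounds, PSMC5 fell after BSJ-03-123 and Palbociclib, and PSMC2, PSMC4, PSMC1 and PSMC6 were not called. PSMC3 (ENSG00000165916; GRCh38 chr11:47418769-47426473, minus strand) had 179.9, 175 and 171 CPM after BSJ-03-123, 191, 189 and 187 CPM after YKL-06-102 and 169.8, 168 and 178 CPM after Palbociclib, against 219.9, 237 and 216 CPM in DMSO. Every compound library was lower than every DMSO library. The log2 fold changes were -0.36 (SE 0.04, edgeR adjusted p = 4.30e-09), -0.25 (SE 0.04, adjusted p = 1.37e-06) and -0.39 (SE 0.04, adjusted p = 7.11e-10), in the order BSJ-03-123, YKL-06-102 and Palbociclib. No exon of its principal transcript is shared with another gene, and the call held under all 18 refits for each compound.

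PSMC5 had 206, 201 and 197 CPM after BSJ-03-123, 214, 217 and 216 CPM after YKL-06-102 and 193, 203 and 201 CPM after Palbociclib, against 222, 226 and 213 CPM in DMSO. The YKL-06-102 libraries overlapped DMSO, and those of the other compounds did not. Its log2 fold changes were -0.13 (edgeR adjusted p = 0.00314) after BSJ-03-123, -0.03 (95% interval -0.10 to 0.04) after YKL-06-102 and -0.15 (adjusted p = 0.000722) after Palbociclib. FTSJ3, an rRNA methyltransferase gene on the other strand, shares 27.2% of the PSMC5 principal transcript. FTSJ3 fell by 0.19 after YKL-06-102 and had log2 fold changes of 0.00 with both other compounds, and its part in the PSMC5 counts was not tested.

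PSMC4, another ATPase of the same ring, gives the contrast to PSMC3 at a like level. It had 185, 182 and 179 CPM after BSJ-03-123, 184, 186 and 189.6 CPM after YKL-06-102 and 183, 186 and 189 CPM after Palbociclib, against 178, 188 and 172 CPM in DMSO. All 3 compound groups overlapped DMSO, with log2 fold changes of 0.02, 0.05 and 0.05. On library totals, and also without DMSO replicate 2, PSMC4 was called higher after YKL-06-102 and after Palbociclib.

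The windows before the start of PSMC3 and PSMG1, the members that fell most, are printed beside those of PSMC4, PSMB8 and PSMB10, which did not fall. They are the 250 bases before the gene start in RefSeq (GRCh38.p14), 5′ to 3′ on the gene's strand, at chr11:47426440-47426689, chr21:39183452-39183701, chr19:39970915-39971164, chr6:32844680-32844929 and chr16:67936851-67937100. RefSeq starts differ from the GENCODE spans used for the other values. Each window reaches into the GENCODE span of its gene, and that of PSMG1 lies wholly inside. Capitals mark every match, on either strand, to 6 motifs. These are the antioxidant response element core TGACNNNGC that NFE2L1 and NFE2L2 can read, the CCAAT box, the GC box GGGCGG, the interferon response core GAAANNGAA, the interferon gamma activated site TTCNNNGAA, which reads the same on both strands, and the E2F core TTCCCGC.
PSMC3: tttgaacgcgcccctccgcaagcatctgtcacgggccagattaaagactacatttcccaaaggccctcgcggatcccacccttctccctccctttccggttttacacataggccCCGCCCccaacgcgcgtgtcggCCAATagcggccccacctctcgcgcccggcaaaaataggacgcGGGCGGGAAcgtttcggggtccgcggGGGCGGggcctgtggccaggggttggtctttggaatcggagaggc
PSMG1: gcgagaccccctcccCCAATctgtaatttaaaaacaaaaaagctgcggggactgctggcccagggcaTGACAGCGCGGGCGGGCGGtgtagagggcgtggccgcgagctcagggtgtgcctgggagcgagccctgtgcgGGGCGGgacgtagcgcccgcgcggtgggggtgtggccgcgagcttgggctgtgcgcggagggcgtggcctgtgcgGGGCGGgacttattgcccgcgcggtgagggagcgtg
PSMC4: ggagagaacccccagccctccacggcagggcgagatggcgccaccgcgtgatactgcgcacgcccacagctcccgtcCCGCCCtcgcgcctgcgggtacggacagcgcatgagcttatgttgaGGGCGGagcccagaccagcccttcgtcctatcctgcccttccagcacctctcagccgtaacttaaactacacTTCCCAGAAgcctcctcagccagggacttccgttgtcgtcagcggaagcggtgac
PSMB8: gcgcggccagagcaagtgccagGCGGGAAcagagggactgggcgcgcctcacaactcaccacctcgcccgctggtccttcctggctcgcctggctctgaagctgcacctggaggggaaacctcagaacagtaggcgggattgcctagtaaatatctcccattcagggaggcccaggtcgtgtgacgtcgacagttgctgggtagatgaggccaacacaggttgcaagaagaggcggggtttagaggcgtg
PSMB10: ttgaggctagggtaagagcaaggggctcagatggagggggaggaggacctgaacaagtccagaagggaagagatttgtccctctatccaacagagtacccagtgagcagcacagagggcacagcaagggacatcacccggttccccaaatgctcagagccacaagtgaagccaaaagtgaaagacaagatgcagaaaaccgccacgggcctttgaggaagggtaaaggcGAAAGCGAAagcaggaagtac

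PSMC3 held a CCAAT box, 3 GC boxes and an E2F core, which overlaps 1 of those GC boxes. PSMG1 held an antioxidant response core, a CCAAT box and 4 GC boxes, and PSMC4 held 2 GC boxes and the interferon gamma activated site. PSMB8 held the E2F core alone and PSMB10 the interferon response core alone. Windows were found for 42 of 48 members, with the first listed start used for the 8 members that had more. The antioxidant response core was in 26.2% of the 42 windows, beside 11.0% of 27303 windows of all genes. The other shares were 42.9% beside 33.0% for the CCAAT box, 61.9% beside 42.3% for the GC box and 11.9% beside 7.06% for the interferon response core. They were 11.9% beside 6.78% for the interferon gamma activated site and 16.7% beside 5.59% for the E2F core.

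Set against the calls, the GC box was in 11 of the 13 windows of members that fell with any compound and in 15 of the 28 windows of the other tested members. The antioxidant response core was in 3 of 13 and 8 of 28, and the E2F core, a motif added after the fold changes were seen, in 2 of 13 and 5 of 28. These matches describe letters in the windows only, and no test was made of them.

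Among the 11 non-ATPase subunits of the regulatory particle, 5 fell after BSJ-03-123, 6 after YKL-06-102 and 6 after Palbociclib, all by under 0.18 on the log2 scale. These are 45.5%, 54.5% and 54.5% of the class, beside 15.7%, 21.3% and 17.6% of all tested genes lower. At a log2 CPM of 5 or more, 39.3%, 48.6% and 44.6% of genes were called in either direction. On library totals 1 of them was called lower with each compound (PSMD11, PSMD12 and PSMD11), and PSMD3 after YKL-06-102 and PSMD13 after Palbociclib were called higher. PSMD1 and PSMD2, the large scaffold subunits that dock ubiquitin receptors and shuttle factors, and PSMD7, PSMD11 and PSMD12, subunits of the lid, fell with all 3 compounds. PSMD14, the lid enzyme that cuts ubiquitin chains off the substrate, fell after YKL-06-102 and Palbociclib, calls lost under 13 and 9 of 18 refits. The ubiquitin receptor PSMD4 and PSMD3, PSMD6, PSMD8 and PSMD13 were called with no compound, at log2 fold changes from -0.02 to 0.05.

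PSMD11, whose level is known to limit proteasome assembly in stem cells, had 167, 169.5 and 166 CPM after BSJ-03-123, 176, 167 and 176 CPM after YKL-06-102 and 164, 162 and 162 CPM after Palbociclib, against 186, 184 and 182 CPM in DMSO. Each compound library was below each DMSO library. The log2 fold changes were -0.13 (SE 0.03, edgeR adjusted p = 0.00157), -0.09 (SE 0.03, adjusted p = 0.0280) and -0.17 (SE 0.03, adjusted p = 6.18e-05), and the YKL-06-102 call was lost under 13 of 18 refits. PSMD2 had 264, 266 and 260.5 CPM after BSJ-03-123, 273, 269 and 266 CPM after YKL-06-102 and 271, 269 and 264 CPM after Palbociclib, against 286, 289 and 281 CPM in DMSO, again with no overlap. These amounted to log2 fold changes of -0.12, -0.08 and -0.09 (edgeR adjusted p = 0.00300, 0.0222 and 0.0174), with calls lost under 1, 12 and 3 of 18 refits.

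PSMD1, PSMD7 and PSMD12 followed the same pattern with log2 fold changes between -0.08 and -0.14. Leaving out 1 library or changing the scaling ended some of their calls, from 1 of 18 refits for PSMD12 after YKL-06-102 to 12 of 18 for PSMD1 with that compound. A transcript on the other strand shares 50.4% of the PSMD7 principal transcript and held 921 reads, beside 55064 for PSMD7. The 3 chaperones that assemble the regulatory particle, PSMD5, PSMD9 and PSMD10, were not called. PSMD10 had 41.4, 39.3 and 38.1 CPM after BSJ-03-123, 42.2, 40.7 and 39.7 CPM after YKL-06-102 and 40.5, 43.6 and 45.1 CPM after Palbociclib, against 41.1, 37.2 and 40.1 CPM in DMSO, with overlap for each compound. PSMD10, also known as the oncoprotein gankyrin, was highest after Palbociclib at 0.13 (95% interval 0.02 to 0.23, edgeR adjusted p = 0.0616), and was called higher there on library totals. PSMD5 had 56.8, 60.4 and 56.1 CPM after BSJ-03-123, 54.7, 56.0 and 54.2 CPM after YKL-06-102 and 55.9, 60.0 and 58.3 CPM after Palbociclib, against 52.3, 51.7 and 58.4 CPM in DMSO. Its libraries also overlapped DMSO, at log2 fold changes of 0.10, 0.03 and 0.10, and on library totals it was called higher after BSJ-03-123 and Palbociclib.

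In the core, the alpha ring gates the barrel and the structural beta subunits complete its inner rings. Among the 8 alpha-ring genes only PSMA8, a testis form, was called, and only after Palbociclib. It had 7.98, 8.14 and 7.69 CPM after BSJ-03-123, 9.50, 9.34 and 9.06 CPM after YKL-06-102 and 7.60, 7.24 and 8.19 CPM after Palbociclib, against 10.1, 8.51 and 9.17 CPM in DMSO. The Palbociclib and BSJ-03-123 libraries were below the DMSO libraries and the YKL-06-102 libraries were among them. The log2 fold changes were -0.22 (edgeR adjusted p = 0.0754, 95% interval -0.40 to -0.03), 0.01 and -0.27 (SE 0.09, adjusted p = 0.0223), and 6 of 18 refits ended the Palbociclib call. PSMA1 to PSMA7 ranged from -0.19 to 0.07. PSMA2 had 10.6, 10.5 and 9.91 CPM after BSJ-03-123, 11.6, 11.6 and 11.0 CPM after YKL-06-102 and 9.79, 11.0 and 11.0 CPM after Palbociclib, against 11.8, 11.6 and 12.05 CPM in DMSO. Its BSJ-03-123 and Palbociclib libraries lay below DMSO, at -0.19 (edgeR adjusted p = 0.0680) and -0.16 (adjusted p = 0.120), while the YKL-06-102 libraries overlapped DMSO at -0.05.

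Of the 4 structural beta genes, PSMB2 was the one called. PSMB2 had 189, 186 and 179 CPM after BSJ-03-123, 184, 193 and 188 CPM after YKL-06-102 and 182, 188 and 186 CPM after Palbociclib, against 196, 201 and 195 CPM in DMSO. Every compound library lay below every DMSO library. PSMB2 was lower after BSJ-03-123 (-0.10, edgeR adjusted p = 0.0215) and Palbociclib (-0.09, adjusted p = 0.0251) and stood at -0.07 after YKL-06-102 (adjusted p = 0.0855). Both calls were lost on library totals, and the Palbociclib call also without DMSO replicate 2. PSMB1 had 185, 196 and 206 CPM after BSJ-03-123, 201, 192 and 187 CPM after YKL-06-102 and 208, 202 and 205 CPM after Palbociclib, against 192, 200.0 and 193 CPM in DMSO. The Palbociclib libraries of PSMB1 were above DMSO and the others overlapped it. PSMB1, PSMB3 and PSMB4 were not called with all 12 libraries on TMM scaling, with log2 fold changes from -0.02 to 0.07. On library totals PSMB4 was higher with all 3 compounds and PSMB1 after Palbociclib. Without DMSO replicate 2, PSMB3 and PSMB4 were called higher after YKL-06-102 and PSMB1 after Palbociclib.

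The constitutive catalytic subunits PSMB5, PSMB6 and PSMB7, which cut after hydrophobic, acidic and basic residues, were not called with any compound. Their log2 fold changes were -0.04, -0.02 and -0.03 after BSJ-03-123, -0.07, 0.10 and 0.00 after YKL-06-102 and -0.03, 0.01 and -0.05 after Palbociclib. PSMB5 had 123, 115 and 115 CPM after BSJ-03-123, 118, 115 and 113 CPM after YKL-06-102 and 119, 119 and 119 CPM after Palbociclib, against 120.2, 125 and 119 CPM in DMSO. PSMB7 had 132, 128 and 127 CPM after BSJ-03-123, 132, 133 and 132 CPM after YKL-06-102 and 123, 129 and 129.9 CPM after Palbociclib, against 134, 134 and 127 CPM in DMSO. The YKL-06-102 and Palbociclib libraries of PSMB5 lay just below the DMSO libraries, and the other groups of both genes overlapped DMSO. The 95% interval of the value farthest from 0, PSMB6 after YKL-06-102, ran from 0.02 to 0.19 (edgeR adjusted p = 0.0572). PSMB6 was called higher after YKL-06-102 on DESeq2 size factors, on library totals and without DMSO replicate 2. PSMB6 had 111, 109 and 111 CPM after BSJ-03-123, 124, 119.8 and 116 CPM after YKL-06-102 and 109.7, 111 and 117 CPM after Palbociclib, against 110.2, 120.4 and 104 CPM in DMSO. Each compound group overlapped DMSO, whose replicate 2 was the highest of its group.

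Of their immunoproteasome counterparts, PSMB8 rose after YKL-06-102 and Palbociclib and PSMB10 rose after Palbociclib, while PSMB9 was not called. PSMB8 (ENSG00000204264; GRCh38 chr6:32840717-32844703, minus strand) had 85.4, 84.1 and 84.8 CPM after BSJ-03-123, 88.2, 89.0 and 84.7 CPM after YKL-06-102 and 87.9, 89.7 and 87.9 CPM after Palbociclib, against 81.3, 86.1 and 75.3 CPM in DMSO. DMSO replicate 2 reached into the BSJ-03-123 and YKL-06-102 values, and the Palbociclib libraries were all above DMSO. PSMB8 had log2 fold changes of 0.06 (edgeR adjusted p = 0.286), 0.11 (SE 0.04, adjusted p = 0.0435) and 0.12 (SE 0.04, adjusted p = 0.0197). The call was lost under 8 of 18 refits for YKL-06-102 and 4 of 18 for Palbociclib, among them the fits without DMSO replicate 1 or without DMSO replicate 3. Without DMSO replicate 2, PSMB8 was called higher with all 3 compounds.

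PSMB10 (ENSG00000205220; GRCh38 chr16:67934502-67937087, minus strand) had 56.7, 55.4 and 55.3 CPM after BSJ-03-123, 59.9, 55.4 and 55.9 CPM after YKL-06-102 and 58.9, 60.2 and 59.1 CPM after Palbociclib, against 52.3, 58.8 and 52.2 CPM in DMSO. Only the Palbociclib libraries were all above the DMSO libraries, and narrowly so above DMSO replicate 2. Log2 fold changes of PSMB10 were 0.03, 0.06 and 0.12 (edgeR adjusted p = 0.697, 0.309 and 0.0454), and 13 of 18 refits ended the Palbociclib call. Another annotated gene on the same strand shares 45.3% of the PSMB10 principal transcript and held 523 reads, beside 15042 for PSMB10. PSMB9 had 9.68, 9.52 and 10.6 CPM after BSJ-03-123, 11.3, 10.5 and 10.9 CPM after YKL-06-102 and 11.0, 10.8 and 8.82 CPM after Palbociclib, against 9.79, 10.7 and 9.50 CPM in DMSO. Its groups overlapped, with log2 fold changes of -0.01, 0.12 and 0.03.

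Per length, the constitutive genes stood above the immunoproteasome genes in every group. In DMSO, PSMB6, PSMB7 and PSMB5 had 77.0, 73.6 and 68.8 CPM per kb of exon, and PSMB10, PSMB8 and PSMB9 had 29.4, 27.0 and 3.25 CPM per kb of exon. By principal transcript length the DMSO levels were 131, 134 and 93.8 CPM per kb for PSMB6, PSMB7 and PSMB5, and 44.7, 72.0 and 12.8 CPM per kb for PSMB10, PSMB8 and PSMB9, so the order of PSMB8 and PSMB10 turned with the length used. The summed immunoproteasome level over the summed constitutive level was 0.282, 0.287 and 0.289 after BSJ-03-123, 0.289, 0.283 and 0.285 after YKL-06-102 and 0.305, 0.306 and 0.290 after Palbociclib, against 0.267, 0.280 and 0.268 in DMSO. All 9 compound libraries lay above the highest DMSO library, which was replicate 2. The mean ratio was 5.34% higher after BSJ-03-123, 5.17% higher after YKL-06-102 and 10.5% higher after Palbociclib than in DMSO. No test is given for this sum over chosen genes.

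The 3 exchange pairs differed in this. PSMB8 over PSMB5 averaged 0.423 after BSJ-03-123, 0.445 after YKL-06-102 and 0.438 after Palbociclib, against 0.392 in DMSO, with overlap for BSJ-03-123 only. PSMB10 over PSMB7 averaged 0.417, 0.417 and 0.450, against 0.399 in DMSO, with only Palbociclib free of overlap. For PSMB9 over PSMB6 the means were 0.0423, 0.0428 and 0.0429, against 0.0422 in DMSO, and all compounds overlapped DMSO. These ratios depend on the length used: by principal transcript, an alternative chosen after seeing the data, PSMB8 over PSMB5 was 0.828, 0.871 and 0.856, against 0.767 in DMSO. By that length PSMB9 over PSMB6 was 0.0979, 0.0988 and 0.0991, against 0.0976 in DMSO. PSMB10 over PSMB7 was 0.348, 0.348 and 0.376, against 0.333 in DMSO.

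**Figure D4:**
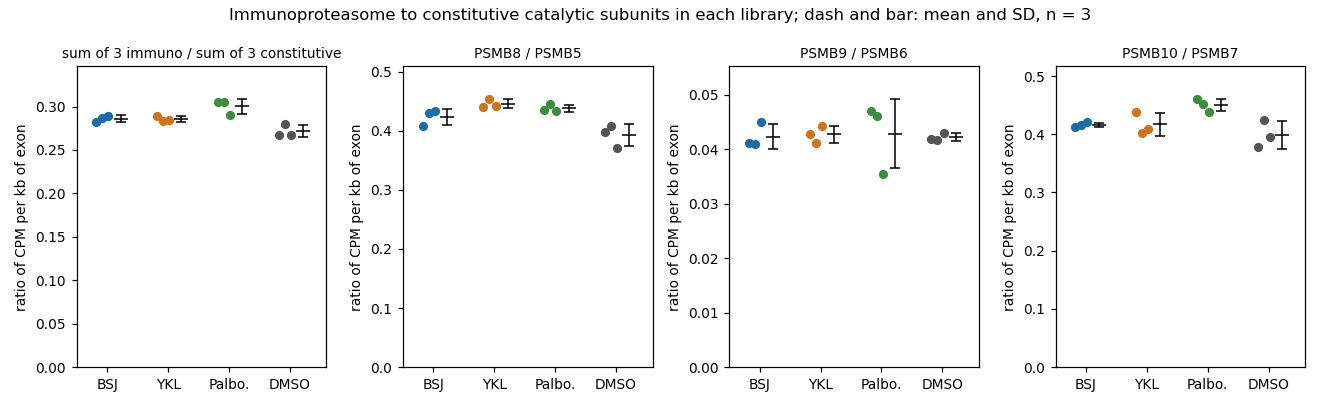
Ratio of CPM per kb of exon between immunoproteasome and constitutive catalytic genes in each library (axes from 0): the sum of 3 over the sum of 3, then each exchange pair, with the mean and SD of 3 libraries beside the points. In the first panel the compound libraries lie between 0.282 and 0.306, all above the DMSO libraries, and in the PSMB9 panel the groups overlap.

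None of the activators or the inhibitor was called. PSME1 had 186, 179.9 and 176 CPM after BSJ-03-123, 179.8, 175 and 171 CPM after YKL-06-102 and 187, 179 and 184 CPM after Palbociclib, against 183, 182 and 163 CPM in DMSO. PSME2 had 113, 111 and 111 CPM after BSJ-03-123, 113, 111 and 109.6 CPM after YKL-06-102 and 109, 113 and 115 CPM after Palbociclib, against 121, 119 and 109.7 CPM in DMSO. All groups overlapped DMSO. These interferon-responsive subunits of an activator cap ranged from -0.06 to 0.06 on the log2 scale across the 3 compounds. PSME3 had 342, 335 and 326 CPM after BSJ-03-123, 331, 323 and 331 CPM after YKL-06-102 and 334, 329 and 328 CPM after Palbociclib, against 335, 354 and 337 CPM in DMSO. PSME4 had 140.4, 144 and 144 CPM after BSJ-03-123, 135, 133 and 134 CPM after YKL-06-102 and 139, 136 and 130.3 CPM after Palbociclib, against 145, 135 and 142 CPM in DMSO. The YKL-06-102 and Palbociclib libraries of PSME3 lay below DMSO, and the other groups overlapped it. Log2 fold changes of PSME3, which forms a nuclear cap, ranged from -0.06 to -0.03, and those of PSME4, a large single-chain activator, from -0.07 to 0.03. PSMF1 had 157, 155 and 146 CPM after BSJ-03-123, 154, 155 and 155 CPM after YKL-06-102 and 149.7, 148 and 153 CPM after Palbociclib, against 142, 157 and 138 CPM in DMSO. This inhibitor gene overlapped DMSO for each compound, with log2 fold changes from 0.04 to 0.08. The 95% intervals of all 5 genes lay within 1.25-fold for each compound. Summed PSME1 and PSME2 over PSME3, per length, averaged 2.04 after BSJ-03-123, 2.03 after YKL-06-102 and 2.09 after Palbociclib, against 1.98 in DMSO, with overlap for each compound. Without DMSO replicate 2, PSMF1 was called higher with all 3 compounds.

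Between compounds at the matched dose and time, BSJ-03-123 and Palbociclib gave 0 called members of 47 in edgeR, with 3 at an unadjusted p under 0.05 (PSMD10, PSME4 and PSMA1, the first and the last lower after BSJ-03-123). DESeq2 also called 0. In that comparison 22 of all 14214 genes were called, 0.155%, and 1198 had an unadjusted p under 0.05. The 95% interval of the difference lay within 1.25-fold for 46 of 47 members, PSMC1 being the exception. For PSMG1 the difference was 0.06 (95% interval -0.03 to 0.15), and for PSMC3 it was 0.03 (95% interval -0.05 to 0.10).

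YKL-06-102 differed from Palbociclib at 6 members, all higher after YKL-06-102 (12.8% of members, beside 24.7% of all genes called in either direction). They were PSMC3 (0.14, SE 0.04, edgeR adjusted p = 0.00445), PSMC5 (0.12, adjusted p = 0.00720), PSMA8 (0.28, adjusted p = 0.0176), PSMG3 (0.16, adjusted p = 0.0186), PSMG1 (0.12, adjusted p = 0.0378) and PSMD11 (0.09, adjusted p = 0.0379). The PSMC3 and PSMC5 differences held under all 18 refits, and without YKL-06-102 replicate 1 only 3 of the 6 were called. BSJ-03-123 differed from YKL-06-102 at 4 members, all lower after BSJ-03-123 (8.51% of members, beside 20.1% of all genes in either direction). These were PSMC3 (-0.11, edgeR adjusted p = 0.0295), PSMC5 (-0.10, adjusted p = 0.0277), PSMG3 (-0.16, adjusted p = 0.0252) and PSMB6 (-0.12, adjusted p = 0.0431). Without BSJ-03-123 replicate 3, 0 of these 4 were called, without its replicate 2 only 1, and without YKL-06-102 replicate 1 only 2. For PSMC3 and PSMG3 the YKL-06-102 mean lay between the means of the other compounds and that of DMSO, and each of these differences was called, the one of PSMG3 from DMSO in few refits.

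Genes that work with the proteasome were taken from lists of 6 to 16 tested genes, and their counts stand beside 15.7%, 21.3% and 17.6% of all tested genes lower after BSJ-03-123, YKL-06-102 and Palbociclib, and 12.4%, 15.6% and 15.6% higher. Among 13 partners, 4 fell after BSJ-03-123, 6 after YKL-06-102 and 5 after Palbociclib, and 0 rose. PITHD1, a proteasome-binding protein, fell by 0.39, 0.37 and 0.42 on the log2 scale, and the deubiquitinase UCHL5 by 0.23, 0.32 and 0.19. ADRM1, the ubiquitin receptor that binds UCHL5, fell by 0.17 after BSJ-03-123 and 0.20 after Palbociclib. Among 10 genes that deliver substrates, 5 fell with each compound, and 0, 2 and 1 rose. FAF1, a cofactor of the unfoldase VCP, fell by 0.35, 0.23 and 0.34, and UFD1, another, by 0.26, 0.20 and 0.27.

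Of 9 genes that control proteasome transcription, BSJ-03-123 gave 1 higher and 1 lower, YKL-06-102 2 and 2, and Palbociclib 0 and 1, which is near those shares of all genes. KEAP1, which holds NFE2L2 down, fell by 0.16 after BSJ-03-123 and 0.24 after Palbociclib. After YKL-06-102, NFE2L2 rose by 0.24 and NFE2L1 fell by 0.11, and NFE2L2 was also higher than after Palbociclib by 0.22 (edgeR adjusted p = 1.10e-05). Among 6 ubiquitin and activation genes, the counts higher and lower were 1 and 0, 1 and 1, and 2 and 0. Of the 2 ubiquitin-activating enzyme genes, UBA1 rose by 0.11 and UBA6 fell by 0.23 after YKL-06-102.

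Of 16 interferon and peptide-loading genes, 3 rose after BSJ-03-123, 4 after YKL-06-102 and 6 after Palbociclib, and 0, 2 and 0 fell, beside 12.4%, 15.6% and 15.6% of all genes higher and 15.7%, 21.3% and 17.6% lower. STAT2, a mediator of type I interferon signals, rose by 0.28, 0.36 and 0.39. IFNGR1, an interferon gamma receptor chain, rose by 0.19 after BSJ-03-123 and 0.26 after Palbociclib. IRF1, a known activator of PSMB8 and PSMB9, fell by 0.28 after YKL-06-102. The list's median log2 fold change was 0.05, 0.01 and 0.11, and its part in the PSMB8 and PSMB10 values was not tested.

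Levels among members varied widely. In DMSO the CPM per kb of principal transcript ran from 0.375 for PSMC1 to 342 for PSME3. The 7 members with at least 40% of the transcript inside exons of another annotated gene (PSMA1, PSMA2, PSMA6, PSMB10, PSMC1, PSMD7 and PSMD9) had a median of 12.7 CPM per kb. The 40 other tested members had a median of 73.9 and a range of 5.13 to 342 CPM per kb, with the lowest value in PSMA8, the testis form, which shares no exon base. PSMC1, an ATPase needed once per ring like its relatives, held 479 reads in all 12 libraries together, and NRDE2 on the other strand covers 82.2% of its transcript. The annotation names 32 pseudogenes of 12 members, with 405 reads in all. PSMC1 pseudogenes held 40.9% as many reads as PSMC1, and those of each other parent held under 1% as many as the parent. The shared bases of PSMC1 and PSMD7 lie on the other strand, and the counting's strand setting is not given in the sources used here. Same-strand exons cover 53.2% of the transcript of PSMA1, 52.5% of PSMA2, 81% of PSMA6, 45.3% of PSMB10 and 43.8% of PSMD9. No strand setting separates genes there. Levels of these 7 genes, and comparisons of level with them, are uncertain.

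**Figure D5:**
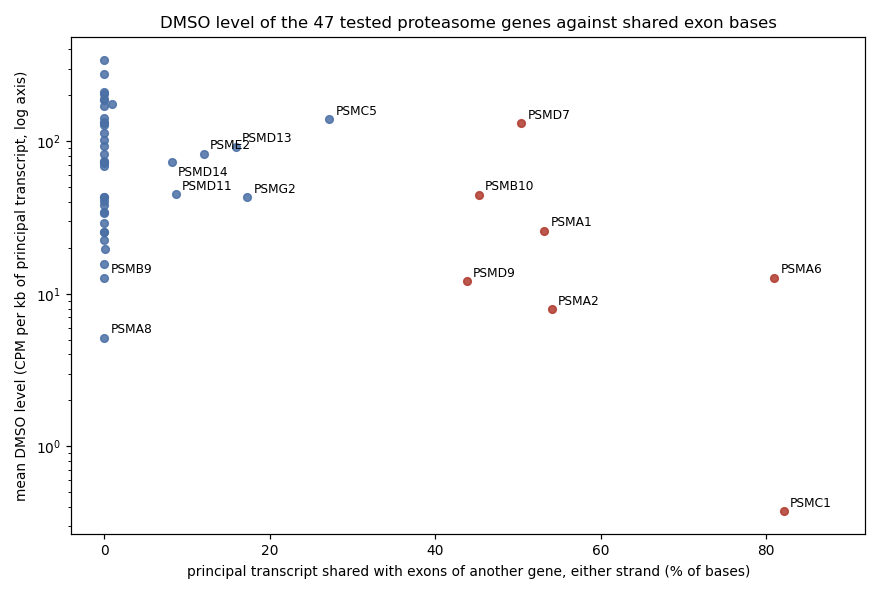
Mean DMSO level (CPM per kb of principal transcript, log axis) of each tested member against the share of its principal transcript (%) that lies in exons of another gene on either strand; red points are the 7 members at 40% or more. PSMC1, at 82.2% shared, is lowest at 0.375, and PSMD7, at 50.4%, is at 131.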

How the data were processed

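Per the labels' protocols, libraries were made from polyadenylated RNA using a strand-marking kit. The tools named for processing are HTSeq, STAR 2.5.2b and Trimmomatic 0.36, and the build is hg38, per the submitters' processing notes. For the annotation release and the strand setting of the counting, no value is given in the sources used here. The values used are the raw counts per gene as deposited by the authors, 58051 Ensembl identifiers in 12 libraries, of which GENCODE 29 named 57447. Depth limits the precision of genes with few reads, such as PSMC1.

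Genes were kept by edgeR's filterByExpr (count 10, total 15), which left 14214 genes with 99.9% of the counts. TMM factors and edgeR 4.0.16 (R 4.3.3) quasi-likelihood tests were used, in 1 fit of all 4 groups with 8 residual degrees of freedom, no covariate and a prior count of 0.125. P-values were adjusted by Benjamini-Hochberg over all tested genes, at 0.05, and intervals are 95%. "Rose" and "fell" mean called. The procedure was tested on simulated data. Lengths and shared exons came from GENCODE 29 and promoter windows from RefSeq (GRCh38.p14). Alternatives were DESeq2 1.42.0, other scalings, no filter, a fit of 2 groups, a replicate block and leaving out each library.

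Membership followed from the gene symbols alone, but the family, lists and tests were set with earlier results of these data known. Values in every library are given for the catalytic, activator and inhibitor members and, in each other class, for the 2 members with the smallest p against DMSO; from each pathway list up to 4 called genes per comparison could be named. PSMG2, PSMG4, PSMC4, PSMC1, partner genes and further called members were named after their values were seen. The values of 1 gene of these lists are not reported here.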

Additional observations from a re-analysis of the deposited data

How the results depend on the processing

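PSMG1 and PSMC3 were called lower for each compound under all 18 refits, and no member's fold change that was called reversed its sign. Counts of called members moved more, and calls over all genes moved with the settings too. When only the 2 groups were fitted, 1361 genes were higher and 1953 lower after BSJ-03-123, beside 1763 and 2234 as reported. After YKL-06-102 that fit gave 2297 and 2474, beside 2215 and 3034. Against DMSO, BSJ-03-123 gave 11 calls, and 7 with no filter on low counts and 7 when only the 2 groups were fitted. It gave 7 among the 32 tested members whose principal transcript shares no exon base with another gene (21.9%). YKL-06-102 gave 12 calls, and 7 with DESeq2 size factors, 7 with no filter, 7 with the DESeq2 test and 4 in a fit of the 2 groups only. Palbociclib gave 15 calls, and 8 with no filter and 9 among those 32 members (28.1%), where fewer genes counted. With no filter, 1799 of all genes were higher and 1958 lower after BSJ-03-123, 2541 and 2379 after YKL-06-102, and 2422 and 2139 after Palbociclib. With the DESeq2 test, 2018 of all genes were higher and 2460 lower after YKL-06-102. Leaving out 1 library gave 7 to 14 calls for BSJ-03-123, 5 to 15 for YKL-06-102 and 9 to 15 for Palbociclib. With 7 calls for BSJ-03-123, without its replicate 3, 1343 of all genes were higher and 2033 lower. With 5 for YKL-06-102, without its replicate 3, these were 2149 and 2293. With 9 for Palbociclib, without its replicate 1, they were 1667 and 2209. The highest counts came without DMSO replicate 2, for which the counts over all genes are given above. Leaving out 1 library gave 3 to 7 calls for YKL-06-102 against Palbociclib and 0 to 5 for BSJ-03-123 against YKL-06-102. With 3 calls, without YKL-06-102 replicate 1, 1767 of all genes were higher and 1057 lower after YKL-06-102 than after Palbociclib. With 0 calls, without BSJ-03-123 replicate 3, 1022 were higher and 1283 lower after BSJ-03-123 than after YKL-06-102. The cause of the other shifts was not tested.

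The immunoproteasome to constitutive ratio depends on how length is treated, in all groups alike. As the median of 3 pair ratios it was 0.415 after BSJ-03-123, 0.417 after YKL-06-102 and 0.438 after Palbociclib, against 0.385 in DMSO. From counts not divided by length it was 0.421, 0.422 and 0.441, against 0.399. With the length of the principal transcript, chosen after seeing the data, it was 0.380, 0.379 and 0.397, against 0.3604. The summed level after Palbociclib was 6215 CPM on library totals, against 6155 CPM as reported.

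Libraries of unlike groups were also correlated by their departures from the mean of their own group, not by their expression levels. Among libraries with the same replicate number, 2 of 18 of these correlations were over 0.1, beside 5 of 36 with unlike numbers. Both of the 2 were between BSJ-03-123 and DMSO, at 0.23 and 0.20, where replicate 1 gave 0.09. Unlike numbers of these groups gave -0.21 to 0.05. The numbers were not used as pairs in the main fit. With the replicate block, the calls were 10, 11 and 14 against DMSO, and 0, 6 and 4 between compounds. In that fit 1749 of all tested genes were higher and 2242 lower, 2215 and 3029, and 2202 and 2485 against DMSO. Between compounds, 25 were higher and 1 lower, 1808 and 1692, and 1366 and 1473, in the same order as the calls.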
